A study of Mus musculus with 15 samples.

Results

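The walls of small vessels hold mural cells, the smooth muscle cells of arterioles and the pericytes of capillaries, and 10 genes that mark them were followed in RNA-seq of the mouse RPE/choroid complex. They were picked by symbol, and all 10 were present in the count table, out of 40481 genes. Acta2, Myh11, Tagln, Cnn1 and Des encode parts of the contractile or cytoskeletal apparatus of smooth muscle. Rgs5, Pdgfrb, Cspg4, Notch3 and Kcnj8 encode signalling, surface and channel proteins that are commonly used to recognise pericytes. The genes were chosen as markers, with earlier results of these data known.

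The samples hold retinal pigment epithelium (RPE), the pigmented sheet behind the photoreceptors, and the vascular choroid under it. The 8 INK-ATTAC libraries came from mice with floxed Abca1 and Abcg1 (cholesterol efflux transporters), LysM-Cre (Cre recombinase driven in myeloid cells) and the INK-ATTAC transgene, and the 7 control libraries came from mice with the same floxed alleles and LysM-Cre but no transgene. INK-ATTAC expresses a fusion of FKBP and caspase 8 from the promoter of p16Ink4a, so that the dimerizer AP20187 kills cells that use this promoter. All 15 libraries are labelled as AP20187 given intraperitoneally, and the submitters' text on mice with the transgene gives a dose every other day for 3 months. The floxed alleles, Cre and drug are therefore shared by both groups, and neither age nor the number of mice per library is given. Nothing in the labels says that libraries came from separate animals, so a p-value here covers only sample-to-sample spread, which may be technical. Library totals lay between 39121503 and 65065950 counts. The RPE markers summed to 71250 to 97270 CPM (counts scaled by library size) in INK-ATTAC libraries and 64790 to 86180 CPM in controls. Lens markers, of a tissue outside the label, summed to 22.2 to 4217 CPM in INK-ATTAC libraries and 21.4 to 869 CPM in controls, with 12 of 12 tested higher and 0 past the test. Their median log2 fold change of INK-ATTAC over control was 2.7. By edgeR's quasi-likelihood test 9 of the 12 had an unadjusted p under 0.05, against 4.14% of all genes.

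Smooth muscle cells narrow a vessel when actin and myosin filaments slide past each other, while pericytes lie along capillaries and exchange signals with the endothelium. Endothelial cells release PDGF-B, which acts on PDGF receptor beta of mural cells, and they present Notch ligands to the Notch3 receptor. Many contractile genes are switched on by serum response factor (SRF) through a DNA element called the CArG box. In the choroid, mural cells surround the arteries that feed the choriocapillaris and the veins that drain it. In bulk tissue, fewer mural cells and less RNA per cell cannot be told apart.

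The 250 bases before the RefSeq start of 4 genes are shown because the closest relations of these genes across the libraries differed. Acta2 varied most closely with Tagln, and Notch3 with Pdgfrb and the endothelial level. Des varied most closely with skeletal muscle, by Pearson's r and not by rank, and Cnn1 was not related to any of them past the threshold. Acta2 and Notch3 were themselves correlated (r = 0.668, permutation adjusted p = 0.0249), but not by rank (rho = 0.532, permutation adjusted p = 0.146). Capitals mark matches to the CArG box with at most 1 mismatch, on either strand, and the sequences are from RefSeq on GRCm38.p6, written 5′ to 3′ along the gene.
Acta2, chr19:34255374-34255623, minus strand: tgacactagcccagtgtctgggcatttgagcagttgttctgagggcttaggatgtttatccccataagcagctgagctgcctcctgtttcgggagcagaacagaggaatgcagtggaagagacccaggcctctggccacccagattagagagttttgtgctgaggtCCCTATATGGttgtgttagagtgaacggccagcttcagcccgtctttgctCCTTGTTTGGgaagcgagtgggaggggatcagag
Cnn1, chr9:22099003-22099252, plus strand: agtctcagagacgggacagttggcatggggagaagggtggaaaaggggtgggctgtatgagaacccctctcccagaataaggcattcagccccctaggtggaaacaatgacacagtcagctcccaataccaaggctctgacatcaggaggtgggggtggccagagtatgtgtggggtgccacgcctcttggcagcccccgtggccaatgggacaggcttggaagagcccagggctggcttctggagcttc
Des, chr1:75360042-75360291, plus strand: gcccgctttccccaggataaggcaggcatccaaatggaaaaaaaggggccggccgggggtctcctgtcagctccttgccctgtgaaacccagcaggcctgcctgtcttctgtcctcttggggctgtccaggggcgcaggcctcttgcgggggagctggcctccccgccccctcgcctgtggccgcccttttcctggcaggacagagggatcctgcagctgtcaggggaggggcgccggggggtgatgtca
Notch3, chr17:32166891-32167140, minus strand: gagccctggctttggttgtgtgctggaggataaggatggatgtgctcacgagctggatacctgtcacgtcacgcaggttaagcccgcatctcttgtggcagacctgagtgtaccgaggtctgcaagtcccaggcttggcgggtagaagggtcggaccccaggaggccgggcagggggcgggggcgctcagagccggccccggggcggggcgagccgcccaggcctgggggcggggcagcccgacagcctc

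Of the 10 genes, 7 had an entry in the promoter table (not Myh11, Tagln and Pdgfrb). The CArG box is 10 bases long and reads the same in form on both strands. None of these 7 windows held an exact match, and 1.47% of all 32851 promoter windows of this length did. With 1 mismatch allowed, Acta2 held 2 matches, which begin 84 and 34 bases before its start. Cspg4 held 2 overlapping matches and Kcnj8 held 1, while Cnn1, Des, Rgs5 and Notch3 held none. Such a match occurred in 18.6% of all windows, so its presence in 3 of 7 is a description of these letters only. The core RBPJ motif GTGGGAA, through which Notch receptors act on DNA, was found in none of the 7 windows on either strand and in 5.42% of all windows.

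All 10 genes were detected in every library, with the lowest count, 83, for Cnn1 in control 5. Levels per length are given as TPM, a share of all transcripts computed from the counts and the exonic length of each gene. Acta2, smooth muscle alpha-actin, was the most abundant, at 341 ± 55.2 TPM in INK-ATTAC libraries (SD, n = 8) and 348 ± 92.0 TPM in controls (SD, n = 7). It made up 56.1% of the summed TPM of the 10 genes. Rgs5, a brake on G protein signalling, followed at 102 ± 26.0 TPM in INK-ATTAC libraries and 116 ± 24.7 TPM in controls (SD, n = 8 and 7). Tagln, the actin-binding protein transgelin (SM22), came next at 78.1 ± 27.8 and 78.6 ± 31.6 TPM in INK-ATTAC and control libraries (SD, n = 8 and 7). The intervals of mean ± SD of Rgs5 and Tagln overlapped, so their order is within the spread.

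Des, Kcnj8 and Pdgfrb formed the next step of the per-length order, with means over all libraries of 26.7, 21.5 and 17.5 TPM. Cnn1, Myh11 and Cspg4 lay at 6.03, 4.84 and 3.91 TPM, and Notch3 was lowest at 1.68 TPM, where its interval lay apart from that of Cspg4 in INK-ATTAC libraries and overlapped it in controls. Within each of these steps the intervals of mean ± SD overlapped in both groups, and those of Pdgfrb and Cnn1, across the step, overlapped in INK-ATTAC libraries and lay apart in controls. Summed over the 10 genes, the level was 606 ± 112 TPM in INK-ATTAC libraries (SD, n = 8) and 621 ± 162 TPM in controls (SD, n = 7).

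The comparison of INK-ATTAC with control libraries asked whether mural cell transcripts differed after AP20187 in mice that carry the ablation transgene. None of the 10 genes passed edgeR's quasi-likelihood test, with adjusted p = 1.00 for each over the 17991 genes tested. Over all genes 0 passed as well, which is 0.0% of those tested. At an unadjusted p under 0.05, 1 of the 10 genes and 745 of all genes (4.14%) were found. DESeq2 called 6 genes (0.0334%) and limma-voom with sample quality weights 2 (0.0111%), in neither case one of the 10. In the authors' deposited table, 3 genes (0.0208%) had an adjusted p under 0.05, and none of the 10 was among them. The log2 fold change of INK-ATTAC over control was positive for 5 of the 10 genes and negative for 5, where 50.2% of all genes were negative, with a median of -0.0175, beside a median of -0.00097 over all genes. The sign turned in at least 1 alternative for each gene but Des and Rgs5, and with the level of long transcripts, described with the correlations, as a covariate 8 were positive and 2 negative (median 0.28, against 0.0139 over all genes). With the skeletal muscle level as a covariate 9 were positive and 1 negative (median 0.19), and with sample quality weights 2 were positive and 8 negative (median -0.0898), so the balance of signs depended on the fit. The lowest and highest values of the groups overlapped for each of the 10, where 0.0222% of all genes had groups that did not overlap.

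**Figure D1:**
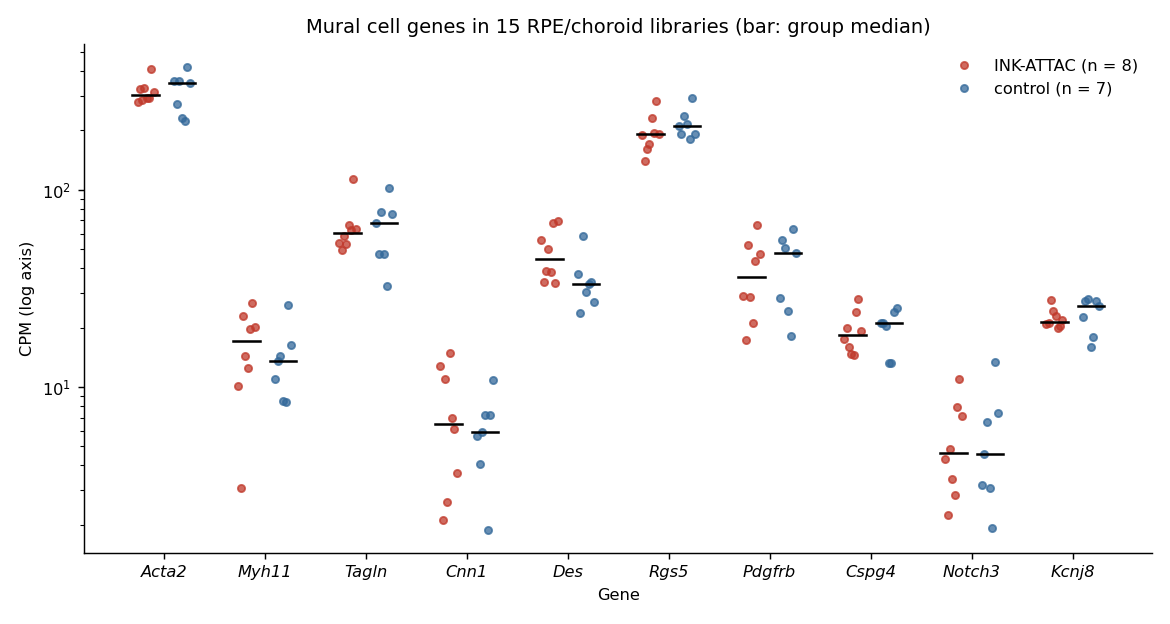
CPM (log axis) of the 10 mural cell genes in each library, INK-ATTAC (n = 8) left of control (n = 7), with bars at the group medians. The groups overlap for every gene, and Myh11, Cnn1 and Notch3 spread most.

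Among the contractile genes, Acta2 (chromosome 19, 34241090 to 34255590, minus strand, GRCm38) was the steadiest. It had a lowest, median and highest value of 280.4, 303 and 410.2 CPM in INK-ATTAC libraries, against 222, 347 and 419 CPM in controls. The control libraries enclosed the INK-ATTAC range on both sides. The log2 fold change was 0.0041 (SE 0.13).

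Tagln (chromosome 9, 45929619 to 45936058, minus strand) gave 49.6, 60.5 and 114 CPM as lowest, median and highest in INK-ATTAC libraries, against 32.6, 67.9 and 102 CPM in controls. INK-ATTAC 7 and control 6 stood highest in their groups. Tagln had a log2 fold change of 0.02 (SE 0.21). An exon of Tagln overlaps one of Pcsk7 on the other strand. Pcsk7 averaged 9.45 CPM in INK-ATTAC libraries and 10.1 CPM in controls, and without a stated strand setting reads in the overlap can be counted for either gene.

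Myh11 (chromosome 16, 14194535 to 14291372, minus strand), the smooth muscle myosin heavy chain, ran at 3.07, 17.0 and 26.8 CPM as lowest, median and highest in INK-ATTAC libraries, against 8.36, 13.5 and 26.1 CPM in controls. INK-ATTAC 2 was the lowest of all 15 libraries and INK-ATTAC 7 the highest, an 8.72-fold span. The log2 fold change of 0.21 (SE 0.34) was smaller than its error. It was 0.64 (SE 0.24, edgeR adjusted p = 0.625) with the level of long transcripts as a covariate, 0.52 (SE 0.33) with the skeletal muscle level, 0.064 without INK-ATTAC 7 and 0.43 without control 6.

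Cnn1 (chromosome 9, 22099216 to 22109630, plus strand) encodes calponin, an inhibitor of the actomyosin motor. Its lowest, median and highest values were 2.13, 6.52 and 14.9 CPM in INK-ATTAC libraries, against 1.89, 5.90 and 10.9 CPM in controls. INK-ATTAC libraries 1, 3 and 5 reached 12.8, 11.0 and 14.9 CPM, while INK-ATTAC 2, 4 and 8 stayed at 2.13, 2.62 and 3.65 CPM. The INK-ATTAC libraries thus covered a wider span than the controls, and the log2 fold change was 0.29 (SE 0.40). It was 0.064 without INK-ATTAC 5, 0.50 without control 7, 0.018 with sample quality weights and 0.021 in the authors' deposited table.

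Des (chromosome 1, 75360329 to 75368579, plus strand) encodes desmin, an intermediate filament of smooth, cardiac and skeletal muscle. It had a lowest, median and highest value of 33.5, 44.5 and 69.7 CPM in INK-ATTAC libraries, against 23.8, 33.4 and 58.2 CPM in controls. The mean was 48.5 ± 14.7 CPM over INK-ATTAC libraries (SD, n = 8) and 34.9 ± 11.3 CPM in controls (SD, n = 7). The log2 fold change of 0.48 (SE 0.20) had an unadjusted p of 0.0267 and an adjusted p of 1.00 with edgeR, and in the authors' deposited table it was 0.63 with an adjusted p of 0.649. In that test Des was the only one of the 10 genes with an unadjusted p under 0.05, and 2.2% of all genes were higher in INK-ATTAC libraries at that threshold. All 20 skeletal muscle markers tested, from a list without Des, were also higher in INK-ATTAC libraries, with a median log2 fold change of 0.74, and 0 of them passed the test. The summed level of this list ran from 859 to 4076 CPM in INK-ATTAC libraries, against 383 to 2975 CPM in controls, and no marker was at 0. With the skeletal muscle level as a covariate the log2 fold change of Des was 0.21 (SE 0.18). The antisense gene Gm15179 overlaps an exon of Des and averaged 0.376 CPM in INK-ATTAC libraries and 0.154 CPM in controls.

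Of the pericyte genes, Rgs5 (chromosome 1, 169655501 to 169695813, plus strand) had a lowest, median and highest level of 139, 191 and 282 CPM in INK-ATTAC libraries, against 182, 211 and 293 CPM in controls. INK-ATTAC 2, 3 and 4 lay below every control library. Rgs5 had a log2 fold change of -0.16 (SE 0.13).

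Pdgfrb (chromosome 18, 61045150 to 61085061, plus strand), the receptor for PDGF-B, gave 17.4, 36.3 and 66.2 CPM as lowest, median and highest in INK-ATTAC libraries, against 18.1, 47.7 and 63.5 CPM in controls. The log2 fold change of -0.11 (SE 0.30) was within its error. The PDGF ligands Pdgfa, Pdgfb, Pdgfc and Pdgfd and the other receptor Pdgfra were tested too, and 0 of these 5 genes passed, with 2 higher and 3 lower. The lowest p among them was that of Pdgfd, with a log2 fold change of -0.17 (SE 0.12).

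Notch3 (chromosome 17, 32120820 to 32166852, minus strand), a Notch receptor of mural cells, ran at 2.25, 4.60 and 11.0 CPM as lowest, median and highest in INK-ATTAC libraries, against 1.94, 4.59 and 13.5 CPM in controls. INK-ATTAC 7 and control 6 were the highest, and the medians lay close together. Notch3 had a log2 fold change of -0.08 (SE 0.39). The antisense gene Gm17276 overlaps an exon of Notch3 and averaged 0.578 CPM in INK-ATTAC libraries and 0.507 CPM in controls. Of 13 other Notch pathway genes, 0 passed, 4 were higher and 9 lower, with a median log2 fold change of -0.0358. Those of lowest p were the target gene Hey2 (-0.26, SE 0.15), Rbpj (-0.12, SE 0.07), Hes1 (0.14, SE 0.12) and Nrarp (-0.25, SE 0.26).

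Cspg4 (chromosome 9, 56865033 to 56899870, plus strand) encodes the NG2 proteoglycan of the pericyte surface. It had a lowest, median and highest value of 14.5, 18.3 and 28.0 CPM in INK-ATTAC libraries, against 13.2, 21.1 and 25.1 CPM in controls, and a log2 fold change of -0.04 (SE 0.17). NG2 is also made by oligodendrocyte precursors. The markers of that list summed to 95.8 to 162 CPM in INK-ATTAC libraries and 93.3 to 142 CPM in controls, but both of its tested genes, Pdgfra and Sox10, are used by fibroblasts or by melanocytes and Schwann cells as well. Olig1 and Olig2, also of that list, had too few counts to be tested. The part of oligodendrocyte precursors in the level of Cspg4 was not tested.

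Kcnj8 (chromosome 6, 142564837 to 142571614, minus strand) encodes Kir6.1, the pore of the ATP-sensitive potassium channel of mural cells. It ran at 19.9, 21.4 and 27.6 CPM as lowest, median and highest in INK-ATTAC libraries, against 15.9, 25.7 and 27.8 CPM in controls, and its log2 fold change was -0.07 (SE 0.12). Its 1.75-fold span over all libraries was the narrowest of the 10 genes. Abcc9, which encodes the SUR2 subunit that joins Kir6.1, had 10.3 ± 2.51 CPM among INK-ATTAC libraries (SD, n = 8) and 11.0 ± 3.59 CPM among controls (SD, n = 7), with a log2 fold change of -0.10 (SE 0.19).

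Further genes of the same cells were tested. Of 20 other pericyte markers 0 passed, 7 were higher and 13 lower, with a median log2 fold change of -0.0471. The lowest p among them belonged to Angpt1, the ligand of the endothelial receptor Tie2, with -0.19 (SE 0.11), and P2ry14 with -0.26 (SE 0.16). Of 19 other genes of the smooth muscle contractile apparatus and its regulators 0 passed, 13 were higher and 6 lower, with a median of 0.17, and 3 of the 19 had an unadjusted p under 0.05, against 4.14% of all genes. The tropomyosin genes Tpm2 (0.64, SE 0.25) and Tpm1 (0.43, SE 0.20), Lmod1 (0.21, SE 0.09), which encodes the actin nucleator leiomodin, and Ramp1 (0.57, SE 0.30), a partner of the receptor for the vasodilator peptide CGRP, had the lowest p, and the first 3 of them are those under 0.05. Both tropomyosin genes are also used by skeletal muscle, whose markers were higher as given above, and the part of that tissue in their values was not tested.

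**Figure D2:**
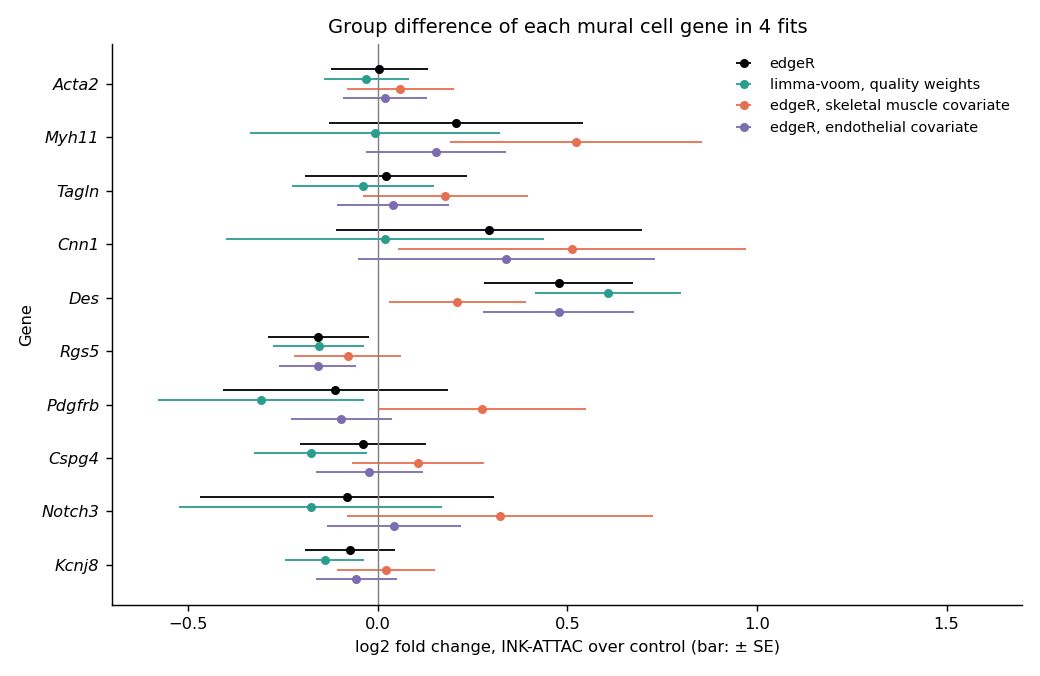
Log2 fold change of INK-ATTAC over control for each gene (± SE) in edgeR, in limma-voom with sample quality weights, and in edgeR with the skeletal muscle or the endothelial level as a covariate. Des lies at 0.48 in edgeR and 0.21 with the skeletal muscle level, and all genes but Cnn1, Des and Rgs5 lie on both sides of 0 across these fits.

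The spread between libraries was larger than any group difference. The span from lowest to highest library was 8.72-fold for Myh11, 7.90-fold for Cnn1 and 6.95-fold for Notch3, against 1.89-fold for Acta2. The biological coefficient of variation, the spread of a gene beyond counting error, was 0.54 for Cnn1, 0.52 for Notch3, 0.45 for Myh11 and 0.40 for Pdgfrb. It was lowest for Rgs5, Acta2 and Kcnj8, at 0.19, 0.18 and 0.17. Compared with the 1000 tested genes nearest in mean level, 9 of the 10 genes lay above the 90th percentile of this measure, with Cnn1 at 99.5 and Cspg4 at 90.1, and Kcnj8 lay at 74.9.

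The same libraries were high or low for many of the genes. In control 5 all 10 genes were below their mean over the 15 libraries, with a median log2 deviation of -0.60. Control 4 and INK-ATTAC 2 had 8 of 10 below it, with medians of -0.47 and -0.42. At the other end, INK-ATTAC 7 had 8 of 10 above its genes' means (median 0.52), control 6 had 9 (0.49) and control 3 had 10 (0.27). High and low libraries occurred in both groups. Cnn1 and Des broke the pattern: Cnn1 was highest in INK-ATTAC 5, where Pdgfrb and Notch3 were low, and Des was below its mean in INK-ATTAC 7 and control 6.

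**Figure D3:**
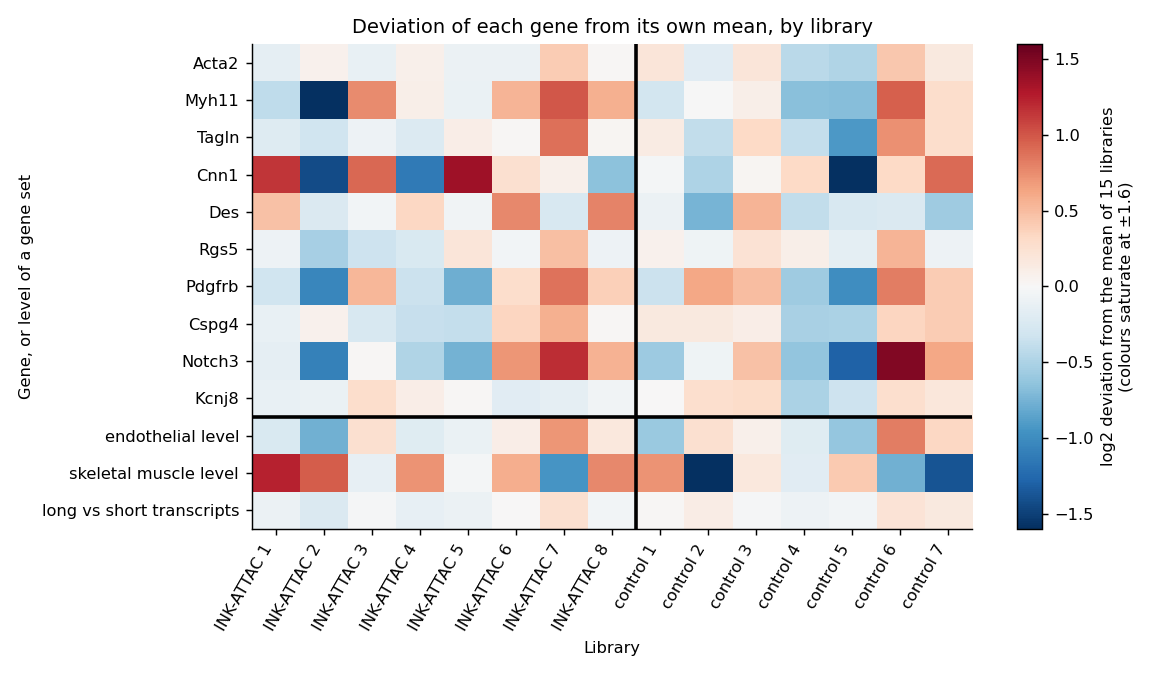
Log2 deviation of each gene from its own mean over the 15 libraries, with INK-ATTAC libraries left of controls, and the same for the endothelial level, the skeletal muscle level and the level of long against short transcripts. Control 5 is low for all 10 genes, INK-ATTAC 7 and control 6 are high for most, and Des is low together with skeletal muscle in INK-ATTAC 7 and control 2, 6 and 7. In INK-ATTAC 2, control 1 and control 5, Des is below its mean while skeletal muscle is above its mean.

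Of the 45 pairs of genes, 14 were correlated over the 15 libraries (Pearson's r of log2 CPM, permutation test, adjusted p under 0.05 over 45 pairs), all positively. The closest pair was Pdgfrb and Notch3, with r = 0.909 (permutation adjusted p = 0.00045) and rho = 0.871 (permutation adjusted p = 0.0009). It was 0.927 within the INK-ATTAC libraries and 0.904 within the controls, and 0.86 without the 2 libraries farthest from the median of Pdgfrb. Acta2 and Tagln followed with r = 0.886 (permutation adjusted p = 0.00075) and rho = 0.854 (permutation adjusted p = 0.00165), at 0.725 within INK-ATTAC libraries, 0.959 within controls and 0.841 without the 2 farthest libraries. Myh11 went with Pdgfrb (r = 0.837, rho = 0.836, permutation adjusted p = 0.00045 and 0.00214) and with Notch3 (r = 0.808, rho = 0.889, permutation adjusted p = 0.00124 and 0.00045), and both relations stayed above 0.8 without the 2 farthest libraries, at 0.816 and 0.829. Over all 15 libraries Myh11 therefore varied more closely with Pdgfrb and Notch3 than with Acta2 (r = 0.423, permutation adjusted p = 0.22, rho = 0.514, permutation adjusted p = 0.15), although the difference between these correlations was not tested. Within the INK-ATTAC libraries r of Myh11 was 0.16 with Acta2 and 0.871 with Pdgfrb, and within the controls 0.851 and 0.889. Myh11 also went with the contractile gene Tagln (r = 0.638, rho = 0.661, permutation adjusted p = 0.0417 and 0.0472). Tagln and Acta2 were correlated with pericyte genes too. Tagln went with Notch3 (r = 0.818, rho = 0.693, permutation adjusted p = 0.00144 and 0.0395). It also went with Cspg4, Rgs5 and Pdgfrb (r = 0.727, 0.716 and 0.681, permutation adjusted p = 0.00917, 0.0154 and 0.0184). Acta2 went with Cspg4 and Notch3 (r = 0.749 and 0.668, permutation adjusted p = 0.00917 and 0.0249). By rank, only Tagln with Notch3 and Tagln with Rgs5 passed among these.

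Cnn1, Des and Kcnj8 took part in none of the 14 pairs. The highest r of Cnn1 was 0.456 with Tagln (permutation adjusted p = 0.184, rho = 0.40, permutation adjusted p = 0.274), and that of Des was 0.20 with Myh11 (permutation adjusted p = 0.64, rho = 0.211, permutation adjusted p = 0.608). Kcnj8 reached 0.574 with Pdgfrb (permutation adjusted p = 0.0748, rho = 0.514, permutation adjusted p = 0.15). Without control 5 the number of correlated pairs was 8, and without control 6 it was also 8.

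**Figure D4:**
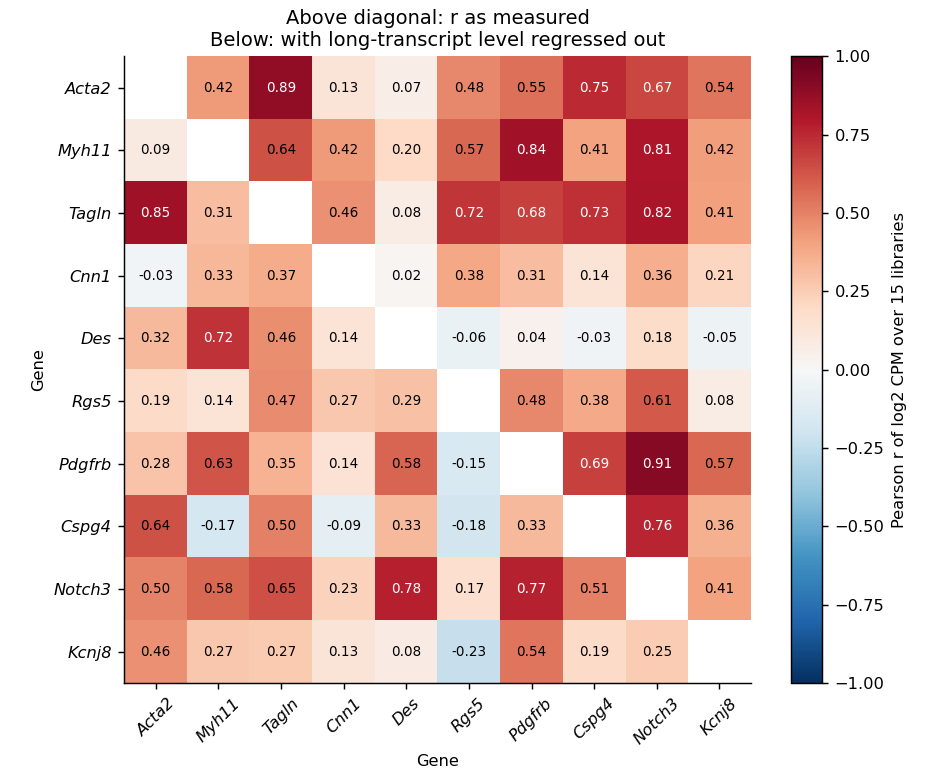
Pearson's r of log2 CPM over the 15 libraries for each pair of genes, as measured above the diagonal and with the level of long transcripts regressed out below it. Acta2 and Tagln stand at 0.89 and 0.85 above and below it, while the correlations among Myh11, Pdgfrb, Cspg4 and Notch3 are lower below the diagonal.

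The 10 genes were next set beside the mean level of marker lists of 6 other tissues or cell types, 60 relations in all, of which 5 passed. Endothelial markers rose and fell with Notch3 (r = 0.906, rho = 0.871, permutation adjusted p = 0.0002 and 0.001), Pdgfrb (r = 0.904, rho = 0.90, permutation adjusted p = 0.0002 and 0.0009) and Myh11 (r = 0.862, rho = 0.904, permutation adjusted p = 0.0002 and 0.0006). These remained at 0.854, 0.873 and 0.839 without the 2 libraries farthest from the median endothelial level. Tagln was related to the endothelial level too (r = 0.731, permutation adjusted p = 0.0289), but by rank it did not pass (rho = 0.593, permutation adjusted p = 0.166). Acta2 gave r = 0.518 and rho = 0.40 (permutation adjusted p = 0.215 and 0.432). The endothelial list itself, 14 genes with 6 higher and 8 lower and 0 past the test, summed to 380 to 727 CPM in INK-ATTAC libraries and 367 to 746 CPM in controls.

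Des was related to the skeletal muscle level with r = 0.707 (permutation adjusted p = 0.0356) and rho = 0.696 (permutation adjusted p = 0.0685). Without the 2 libraries farthest from the median muscle level r was 0.513. The other 9 genes had a negative r with the skeletal muscle level, from -0.166 for Acta2 to -0.577 for Pdgfrb, and none of these passed (lowest permutation adjusted p = 0.165 for Pdgfrb, rho = -0.586). No gene was related past the threshold to the fibroblast, RPE, rod or lens level.

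**Figure D5:**
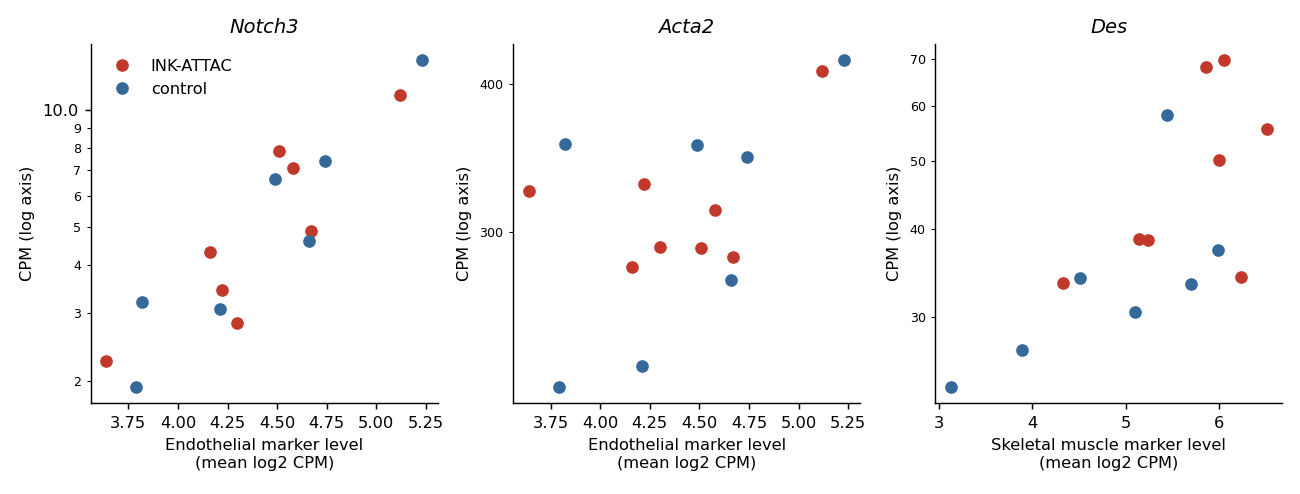
CPM (log axis) of Notch3 and Acta2 against the endothelial marker level, and of Des against the skeletal muscle marker level, with 1 point per library in the colour of its group. Notch3 follows the endothelial level (r = 0.906), Acta2 does so less closely (r = 0.518), and Des follows the skeletal muscle level (r = 0.707).

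Transcript length moved with these relations. The level of long transcripts was taken as the mean log2 CPM of 3717 protein-coding genes with at least 6747 exonic bases minus that of 3720 genes with at most 2716. It ran from 0.0274 to 0.513 in INK-ATTAC libraries and from 0.184 to 0.482 in controls. It was related to Pdgfrb (r = 0.786, rho = 0.757, permutation adjusted p = 0.00544 and 0.0134), to Notch3 (r = 0.763, rho = 0.707, permutation adjusted p = 0.00971 and 0.016) and to the endothelial level (r = 0.816, rho = 0.743, permutation adjusted p = 0.0048 and 0.0134), adjusted over 32 relations. Without the 2 libraries farthest from its median these were 0.695, 0.564 and 0.649. Rgs5 (r = 0.698, permutation adjusted p = 0.0115) and Tagln (r = 0.662, permutation adjusted p = 0.0177) were related to it as well, but by rank neither passed (rho = 0.564 and 0.561, permutation adjusted p = 0.0796 for each), and without the 2 farthest libraries r was 0.373 and 0.296. The skeletal muscle level ran the other way (r = -0.753, rho = -0.732, permutation adjusted p = 0.0103 and 0.0134, and r = -0.756 without the 2 farthest libraries). Pdgfrb, Myh11, Notch3 and Cspg4 have 5478, 7599, 8089 and 11931 exonic bases. Myh11 (r = 0.72, rho = 0.632, permutation adjusted p = 0.0106 and 0.0414) and Cspg4 (r = 0.684, rho = 0.754, permutation adjusted p = 0.0143 and 0.0134) were also related to the level of long transcripts. Rgs5, which passed by r alone as given above, has 4546 bases. Acta2, Tagln, Kcnj8, Cnn1 and Des have 2196, 1988, 2548, 2736 and 3754 bases. Among them only Tagln passed, by r alone. Acta2 was at r = 0.513 (permutation adjusted p = 0.0953), Kcnj8 at 0.331, Cnn1 at 0.286 and Des at -0.371. The part of transcript length in these values was not tested.

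With the level of long transcripts regressed out, 4 of the 45 pairs passed, and with the endothelial level regressed out 1 did. Acta2 and Tagln passed in both, with r = 0.849 (permutation adjusted p = 0.0045) and r = 0.869 (permutation adjusted p = 0.00225). Pdgfrb and Notch3 passed with the long transcripts regressed out (r = 0.773, permutation adjusted p = 0.012) and not with the endothelial level regressed out (r = 0.498, permutation adjusted p = 0.268). The other 2 pairs that passed with long transcripts regressed out were Des with Notch3 (r = 0.776, permutation adjusted p = 0.012) and Des with Myh11 (r = 0.725, permutation adjusted p = 0.0251). The relation to the endothelial level passed for Notch3 (r = 0.757) and Pdgfrb (r = 0.735) in that setting, each with a permutation adjusted p of 0.0387. Myh11 with the endothelial level was then at 0.683 and Des with the skeletal muscle level at 0.699, near its 0.707 before, each with a permutation adjusted p of 0.0576, and Tagln with the endothelial level was at 0.439 (permutation adjusted p = 0.323).

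Mitochondrial transcripts made up 3.28% and 3.67% of counts in control 4 and control 5, which are among the 3 libraries lowest for these genes, and 2.26% to 2.81% in the other 13. Among the 10 genes, 6 were lower where this share was higher past the threshold, with Acta2 at r = -0.717 (permutation adjusted p = 0.0106, rho = -0.471, permutation adjusted p = 0.149). Without the 2 libraries farthest from the median share, r for Acta2 was -0.277, so that relation rests on those libraries. Notch3 (r = -0.682, rho = -0.768, permutation adjusted p = 0.0106 and 0.0134) stayed at -0.653 without them, Pdgfrb (r = -0.667, rho = -0.604, permutation adjusted p = 0.0106 and 0.0548) at -0.61 and Tagln (r = -0.715, rho = -0.643, permutation adjusted p = 0.0107 and 0.0414) at -0.47. Cspg4 and Kcnj8 were at -0.242 and -0.315 without them. Myh11 passed by rank only (rho = -0.814, permutation adjusted p = 0.0122, r = -0.582, permutation adjusted p = 0.072), with r = -0.727 without them. The part of this share in the levels was not tested.

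Of the 12883 genes ranked (mean log2 CPM 1 or more), those whose level was most like the mean of Acta2, Myh11, Tagln and Cnn1 over the 15 libraries were Mpdz (r = 0.947), Fbxo42 (0.913), Sptan1 (0.912), Ncam1 (0.901) and Sept9 (0.90). For the mean of Rgs5, Pdgfrb, Cspg4, Notch3 and Kcnj8 they were Flna (0.974), Fat1 (0.972), Ltbp2 (0.97), Ccn2 (0.968) and Kirrel (0.967). Flna encodes the actin crosslinker filamin A and Ltbp2 a matrix protein that binds microfibrils. The 100 genes most like these 2 means had a median exonic length of 6867 and 7463 bases, against 4334 over all genes ranked. For Des the most alike genes were Prr33 (0.876), Actn2 (0.863), Atp2a1 (0.863), Fhl3 (0.857) and Adssl1 (0.843), and the median length of the 100 most alike was 2714 bases. Actn2 encodes an actinin of the sarcomere, and Atp2a1 the calcium pump of fast muscle fibres. In the mean of Acta2, Myh11, Tagln and Cnn1, the more variable Myh11 and Cnn1 weigh most. Their biological coefficients of variation were 0.45 and 0.54, against 0.18 for Acta2 and 0.29 for Tagln. In the mean of Rgs5, Pdgfrb, Cspg4, Notch3 and Kcnj8, Notch3 and Pdgfrb weigh most. Their coefficients were 0.52 and 0.40, against 0.23 for Cspg4, 0.19 for Rgs5 and 0.17 for Kcnj8. These r values are descriptions over libraries that share depth and tissue makeup.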

How the data were processed

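Per the labels' protocols, RNA was extracted with TRIzol and columns, and SMARTer chemistry amplified the cDNA. The authors deposited raw read counts per Ensembl gene and a comparison table with, per the file headers, log2 CPM, log2 fold change and p-values. bcl2fastq, DRAGEN, edgeR, limma and GRCm38 are named per the submitters' processing notes. Versions, the strand setting and the annotation: not given in the sources used here.

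The 40757 entries held 276 repeats with identical counts, which were collapsed to 40481 genes. In edgeR 4.0.16 (R 4.3.3) the counts were normalised by TMM, filtered with filterByExpr (17991 genes) and tested with the quasi-likelihood F-test, two-sided, Benjamini-Hochberg adjusted over all genes, threshold 0.05. The SE is the absolute log2 fold change over the square root of F. Correlations used log2 CPM (prior count 2) and two-sided tests of 100000 permutations. Exonic lengths and positions came from GENCODE on GRCm38, which held 40254 of the genes, and TPM was computed over these. No library repeated another of its group (lowest chi-square per gene 30.0).

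The genes and lists were chosen with earlier results of these data known. Named beside the 10 genes are up to 4 genes of lowest p of a context list, and the 5 most alike genes. Alternatives were DESeq2 1.42.0, RLE scaling, 2 other filters, limma 3.58.1 voom with and without quality weights, covariates, a block by label number, rank correlation, group centring and leaving out each library. The relations to long transcripts and to mitochondrial share, and the settings that regress a level out, were chosen after seeing the data. The scripts were tested on simulated data in which every gene had a biological coefficient of variation of 0.265. There edgeR recovered 10 of 50 genes changed 1.5-fold and 43 of 50 changed 2-fold, with 10 false calls. Cnn1, Notch3, Myh11, Pdgfrb, Tagln and Des spread more than 0.265, with Des at 0.269 only just above it. Most genes changed 1.5-fold were not recovered at 0.265, so a small change in these genes could be missed. The simulation held no lower spread, so it does not show how small a change would be found in Acta2, Rgs5, Cspg4 and Kcnj8.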

Additional observations from a re-analysis of the deposited data

Results flagged for a closer look

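In INK-ATTAC 7, Acta2 stood apart from the other libraries of its group, at 410.2 CPM against 329.6 CPM in the next. Tagln did so in the same library, at 113.8 CPM against 66.5 CPM in the next. Des stood apart in control 3, at 58.2 CPM against 37.4 CPM in the next control library. In each case the gap to the nearest library was a larger share of the group's range than the critical value of Dixon's test, 0.526 for 8 libraries and 0.568 for 7. Of 20 groups of values looked at, chance flags about 1 in 20.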

How the results depend on the processing

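No setting called any of the 10 genes. Over the 27 alternatives for each, Des kept a positive and Rgs5 a negative log2 fold change, with ranges of 0.21 to 0.65 and -0.25 to -0.033, and the lowest adjusted p of any gene was 0.625 (Myh11, long-transcript level as a covariate). Genes called overall were 0 with edgeR, 6 with DESeq2, 2 with quality weights and 1 with the long-transcript level as a covariate, and 0 to 0 when a library was left out. With quality weights Acta2 was -0.0303, Myh11 -0.0073 and Tagln -0.0392. With the skeletal muscle level as a covariate Pdgfrb was 0.28, Cspg4 0.11, Notch3 0.32 and Kcnj8 0.023. With the long-transcript level Myh11 was 0.64, Pdgfrb 0.28, Cspg4 0.16 and Notch3 0.48, and with the endothelial level Notch3 was 0.042. Leaving out 1 library gave -0.0733 to 0.0859 for Acta2, -0.14 to 0.17 for Tagln, 0.064 to 0.43 for Myh11, 0.064 to 0.50 for Cnn1, -0.27 to 0.024 for Pdgfrb, -0.14 to 0.028 for Cspg4 and -0.30 to 0.28 for Notch3. The cause of these turns was not tested. The labels do not say that title numbers pair libraries, and the values do not settle it: same-numbered libraries had r = -0.101 to 0.292, above 0.1 in 4 of 7 pairs. With a replicate block by title number 0 genes and 0 of the 10 were called, and by description number Cnn1 turned to -0.014. INK-ATTAC 1, 5, 6 and 7 correlated best with the control of their own title number, and the others did not. The 14 correlated pairs became 9 by rank, 4 with long transcripts and 1 with the endothelial level regressed out, and 8 to 16 without 1 library. The 5 relations to other tissue levels became 3 by rank and 2 with long transcripts regressed out (Des with skeletal muscle then at r = 0.699), and 3 to 6 without 1 library, with 3 without INK-ATTAC 4, INK-ATTAC 7, control 6 or control 7. Cnn1 and Notch3 had the lowest counts of the 10 genes, at 83 and 85. They also had the largest spread beyond counting error, with biological coefficients of variation of 0.54 and 0.52.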

Other observations

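Kcnj8 was related to the other genes differently within the groups, a pattern chosen after the values were seen and whose difference was not tested. Its r with Cspg4 was -0.71 within the 8 INK-ATTAC libraries and 0.908 within the 7 controls, and with Acta2 it was -0.283 within the INK-ATTAC libraries and 0.788 within the controls. Control 4 and control 5 were lowest in Kcnj8, at 15.9 and 17.9 CPM, and also low in Acta2, at 231 and 222 CPM. In INK-ATTAC 7, the library with the highest Acta2 of its group, Kcnj8 was 20.4 CPM, below the median of that group.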
